A study of Mus musculus with 32 samples.

Results

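Lysyl oxidases and the hydroxylases that prepare collagen for crosslinking were examined in whole bladders of female C57BL/6 mice by bulk RNA sequencing. The 10 genes were chosen by symbol, namely the lysyl oxidases Lox, Loxl1, Loxl2, Loxl3 and Loxl4, the lysyl hydroxylases Plod1, Plod2 and Plod3, and the prolyl 4-hydroxylase subunits P4ha1 and P4ha2. Each matched 1 of the 32285 rows of the count table, and all 10 passed the filter on low counts in each comparison. Untreated mice gave 6 young bladders (2 months of age), 5 middle-aged bladders (10 months) and 6 old bladders (26 months). The other mice, also old at 26 months, had been gavaged monthly since 21 months, each time for 3 consecutive days. Their gavage was water (n = 5), vehicle (n = 4) or D + Q in vehicle (n = 6). The vehicle was Phosal 50 PG (60%) with polyethylene glycol 400 (30%) and ethanol (10%). D + Q is a senolytic combination of the kinase inhibitor dasatinib, given at 5 mg/kg/day, and the plant flavonoid quercetin, given at 50 mg/kg/day. Each of the 32 libraries came from a single bladder of an unmodified mouse, so the replicates are separate animals.

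Collagen and elastin become load-bearing only after their chains are covalently joined. Inside the cell, prolyl 4-hydroxylases modify prolines so that the collagen triple helix is stable, and lysyl hydroxylases modify lysines that later decide which kind of crosslink forms. Outside the cell, the copper-dependent lysyl oxidases convert lysines and hydroxylysines to reactive aldehydes, which condense into crosslinks between neighbouring molecules. The bladder wall rests on this matrix, since it must stretch as urine accumulates and recoil afterwards.

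The lysyl oxidases share a catalytic domain whose copper ion is held by histidines. The coding sequence of that stretch is shown because it is the part of the enzyme that defines the family. The 33 bases were found in the GENCODE M21 transcripts (GRCm38, the build that mm10 names), and each window lies in 2 coding exons and crosses the intron between them, so the coordinates span that intron. Histidine codons are in capitals.
Loxl1: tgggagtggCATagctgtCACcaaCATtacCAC
Loxl2: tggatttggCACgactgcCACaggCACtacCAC
Loxl3: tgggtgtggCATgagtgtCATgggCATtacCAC
Loxl4: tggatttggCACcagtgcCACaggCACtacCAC
The Loxl1 window spans chr9:58293720-58294381 on the minus strand (exons 3 and 4 of 7), and that of Loxl2 spans chr14:69682316-69689037 on the plus strand (exons 10 and 11 of 14). For Loxl3 it is chr6:83049995-83050125 on the plus strand (exons 10 and 11 of 14), and for Loxl4 chr19:42598807-42599899 on the minus strand (exons 11 and 12 of 15). Loxl2 and Loxl4 were identical at 31 of the 33 bases. Every other pair was identical at 21 to 25 bases, the fewest being Loxl1 and Loxl4 with 21. The windows were located by a shared amino acid pattern that includes the histidines. Much of this identity was therefore set by the search, and it does not describe the rest of the genes.

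The summed counts were 15088372 to 52650259 per bladder, and each of the 10 genes had at least 257 counts in every bladder, so none was near the detection floor of 3 counts. Levels of a gene are given as CPM, counts scaled to the library size after TMM (trimmed mean of M values) normalization, and levels are compared between genes as TPM, which also divides by exon length. Differences between groups are log2 fold changes from edgeR's quasi-likelihood test, ± SE, with a Benjamini-Hochberg adjusted p over all genes tested, called at a value under 0.05. The labels give no sequencing batch. Markers of urothelium (9 genes), smooth muscle (7) and fibroblasts (8) were all detected in every group.

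By TPM over the 32 bladders, Loxl1, which binds elastin and takes part in elastic fiber formation, was the most abundant lysyl oxidase at 108 ± 36.3 TPM (SD). P4ha1 followed with 72.2 ± 7.94 TPM, Loxl2 with 58.6 ± 27.4, Plod3 with 49.2 ± 3.01, Plod2 with 35.6 ± 5.88, Lox with 31.9 ± 23.9 and Plod1 with 30.3 ± 5.37. Loxl3 (22.1 ± 1.99 TPM), P4ha2 (17.2 ± 2.14) and Loxl4 (14.1 ± 3.26) were lowest. Neighbours in this order overlapped within 1 SD except Plod3 and Plod2, Plod1 and Loxl3, and Loxl3 and P4ha2. The order depended on age. In young bladders Lox (70.5 ± 34.8 TPM) stood between P4ha1 (77.0 ± 11.8) and Plod3 (51.9 ± 4.41), whereas in untreated old bladders Lox (25.4 ± 6.49 TPM) stood between Plod1 (28.3 ± 1.99) and Loxl3 (22.1 ± 1.63).

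From young to middle-aged bladders 6 of the 10 genes fell and none rose. The 6 were Lox, Loxl1, Loxl2, Loxl4, Plod1 and Plod2. Over all 16754 genes tested, 10.8% were called in either direction and 5.85% were called lower. The enzymes had a median log2 fold change of -0.44, against 0.00 over all genes, and all 10 estimates were negative. From middle-aged to untreated old bladders only Plod2 and P4ha1 were called, both higher, while 24.0% of the 17156 genes tested were called in either direction. With all 6 groups in one edgeR fit neither was called (adjusted p = 0.0561 for Plod2 and 0.0502 for P4ha1).

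Lox (ENSMUSG00000024529, chromosome 18) encodes the founding lysyl oxidase, which crosslinks fibrillar collagen and elastin. Its level in young bladders was 44.1 CPM at the lowest, 83.0 at the median and 163 at the highest. The 5 middle-aged bladders had 30.1, 46.2, 25.9, 42.5 and 24.0 CPM, and the untreated old bladders ranged from 21.6 to 54.1 with a median of 35.0 CPM. The lowest young bladder lay among the middle-aged values, while the other 5 lay above all of them. Lox was 2.84-fold lower in middle-aged than in young bladders (log2 fold change -1.51 ± 0.32, adjusted p = 0.0120) and fell by 62.9% between young and old bladders (-1.43 ± 0.30, adjusted p = 0.00367). Between old and middle-aged bladders it differed by 0.09 ± 0.22 on the log2 scale (adjusted p = 0.815), with a 95% interval from -0.39 to 0.57.

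Loxl2 (ENSMUSG00000034205, chr14:69609068-69695834) encodes a lysyl oxidase known for crosslinking collagen IV of basement membranes. The young bladders had 95.2 to 227 CPM with a median of 179, and the middle-aged bladders had 64.9, 76.6, 68.4, 80.8 and 60.4 CPM. These groups did not overlap, and Loxl2 was 2.35-fold lower in middle age (-1.23 ± 0.18, adjusted p = 0.00217). The untreated old bladders, at 60.6 to 91.9 CPM with a median of 78.5, also lay entirely below the young (-1.10 ± 0.18, adjusted p = 0.000523) and overlapped the middle-aged.

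Loxl1 (ENSMUSG00000032334, chr9:58287738-58313186) had 108 to 233 CPM in young bladders, with a median of 150. The middle-aged bladders had 104, 77.6, 92.3, 104 and 89.3 CPM and lay just below the lowest young one (log2 fold change -0.74 ± 0.18, adjusted p = 0.0225). The old bladders had 82.1 to 107 CPM with a median of 93.2, and Loxl1 was 1.69-fold lower than in the young (-0.76 ± 0.17, adjusted p = 0.00509). Old and middle-aged bladders differed by -0.01 ± 0.08 (adjusted p = 0.945). The call in middle age did not hold without young replicate 6 (adjusted p = 0.0527) or without middle-aged replicate 2, 3 or 5 (adjusted p = 0.0608, 0.0526 and 0.0637).

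Loxl4 (ENSMUSG00000025185, chr19:42593982-42612813) was the least abundant of the 5 oxidases. It had 16.1 to 31.5 CPM in young bladders, with a median of 21.9, and 11.6, 12.1, 13.9, 18.7 and 12.8 CPM in middle-aged bladders. Middle-aged replicate 4, the 18.7 CPM bladder, lay within the young range. Loxl4 fell 1.62-fold in middle age (-0.69 ± 0.16, adjusted p = 0.0198), and this call did not hold without middle-aged replicate 1, 2 or 5 (adjusted p = 0.0570, 0.0550 and 0.0596). The old bladders had 15.5 to 18.4 CPM with a median of 16.5, which was lower than in the young (-0.44 ± 0.13, adjusted p = 0.0259). That call in turn did not hold without young replicate 2 or 6 (adjusted p = 0.0526 and 0.0505) or old replicate 1 or 2 (0.0531 and 0.0553). Against middle age the old bladders differed by 0.26 ± 0.11 (adjusted p = 0.0996), a difference that was called when middle-aged replicate 4 was left out (0.39, adjusted p = 0.00185).

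Loxl3 (ENSMUSG00000000693, chr6:83034173-83052562) moved least among the oxidases between young and middle-aged bladders. Its levels were 28.2 to 35.3 CPM in young bladders (median 33.5), 27.0, 29.8, 27.1, 29.6 and 24.9 CPM in middle-aged bladders and 26.8 to 32.6 CPM in old bladders (median 29.9). The difference in middle age was -0.21 ± 0.07 (adjusted p = 0.0741), and it passed the threshold without young replicate 3 (adjusted p = 0.0382) or young replicate 5 (adjusted p = 0.0463). With every bladder kept, it also passed by DESeq2 (adjusted p = 0.0362) and with all 6 groups in one edgeR fit (adjusted p = 0.0220). In 17 of 22 alternatives it was not called.

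**Figure D1:**
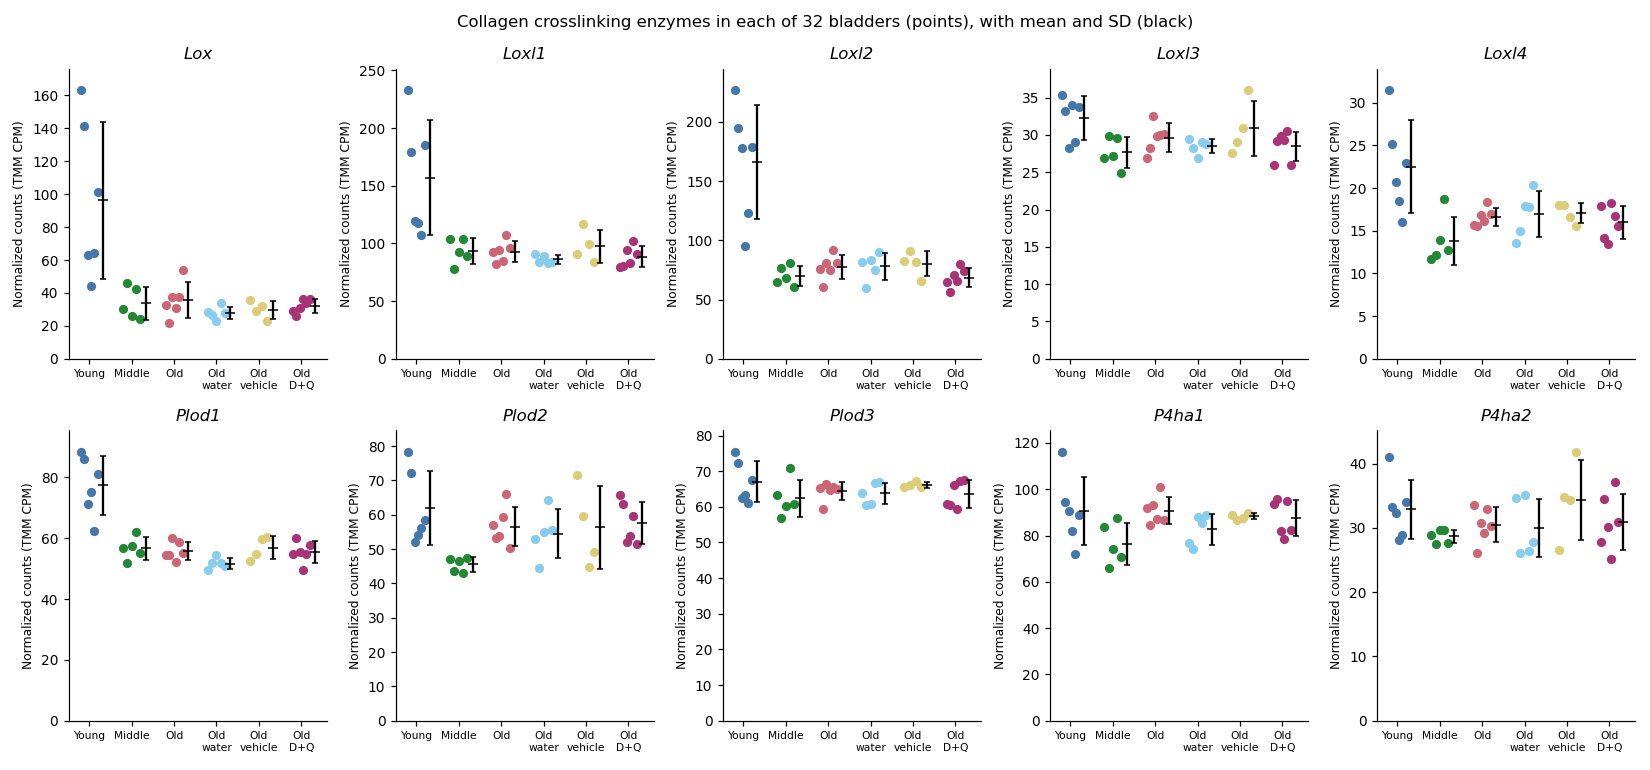
Normalized counts (TMM CPM, linear axis from 0) of the 10 genes in each bladder, by group. Points are single bladders, and black marks to the right of each group are the mean and SD. The young bladders spread widely for Lox (44.1 to 163 CPM), Loxl1 and Loxl2, while the 26-month groups sit close together, with or without gavage.

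Among the lysyl hydroxylases, Plod1 (ENSMUSG00000019055, chr4:147909753-147936767), which hydroxylates lysines in the helical part of collagen, was lower in both older groups. The young bladders had 62.4 to 88.4 CPM with a median of 78.1. The middle-aged bladders had 56.9, 51.7, 57.5, 62.0 and 55.2 CPM, and the old had 52.1 to 60.1 CPM with a median of 54.9. Both older groups lay below every young bladder. Plod1 was 1.35-fold lower in middle-aged (-0.44 ± 0.08, adjusted p = 0.00654) and 1.38-fold lower in old than in young bladders (-0.47 ± 0.08, adjusted p = 0.000553), and old and middle-aged bladders differed by -0.02 ± 0.05 (adjusted p = 0.792).

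Plod2 (ENSMUSG00000032374, chr9:92542223-92608428), which acts on the telopeptides at the ends of collagen chains and so favors hydroxylysine-derived crosslinks, fell and then rose. It had 52.1 to 78.3 CPM in young bladders with a median of 57.3. The middle-aged bladders had 47.0, 43.6, 46.5, 43.0 and 47.5 CPM, and the old had 50.3 to 66.0 CPM with a median of 55.3. The middle-aged bladders lay below every bladder of both other groups. Plod2 was 1.35-fold lower in middle-aged than in young bladders (-0.43 ± 0.10, adjusted p = 0.0166) and 1.24-fold higher in old than in middle-aged bladders (0.31 ± 0.06, adjusted p = 0.00281). Old and young bladders differed by -0.13 ± 0.10 (adjusted p = 0.388), with a 95% interval from -0.35 to 0.09.

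P4ha1 (ENSMUSG00000019916, chr10:59323296-59373304), the more abundant of the prolyl 4-hydroxylase catalytic subunits measured here, had 72.1 to 116 CPM in young bladders with a median of 89.6. The middle-aged bladders had 83.8, 65.8, 74.3, 87.4 and 70.6 CPM, and the old had 84.5 to 101 CPM with a median of 89.6. Middle-aged replicate 4 lay inside the old range, and the other 4 lay below it. P4ha1 was 1.19-fold higher in old than in middle-aged bladders (0.25 ± 0.07, adjusted p = 0.0217), a call that did not hold without middle-aged replicate 3 or 5 (adjusted p = 0.0603 and 0.0686). Between middle-aged and young bladders it differed by -0.23 ± 0.11 (adjusted p = 0.171), and between old and young bladders by 0.00 ± 0.09 (adjusted p = 0.986).

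Plod3 (ENSMUSG00000004846, chr5:136987019-136996648), which also adds sugars to hydroxylysine, and P4ha2 (ENSMUSG00000018906, chr11:54100095-54131665) were not called at any age. Plod3 ranged from 56.8 to 75.4 CPM and P4ha2 from 26.1 to 41.0 CPM over the 17 untreated bladders. Middle-aged and young bladders differed by -0.09 ± 0.07 for Plod3 (95% interval -0.24 to 0.05) and by -0.19 ± 0.08 for P4ha2 (-0.36 to -0.01).

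**Figure D2:**
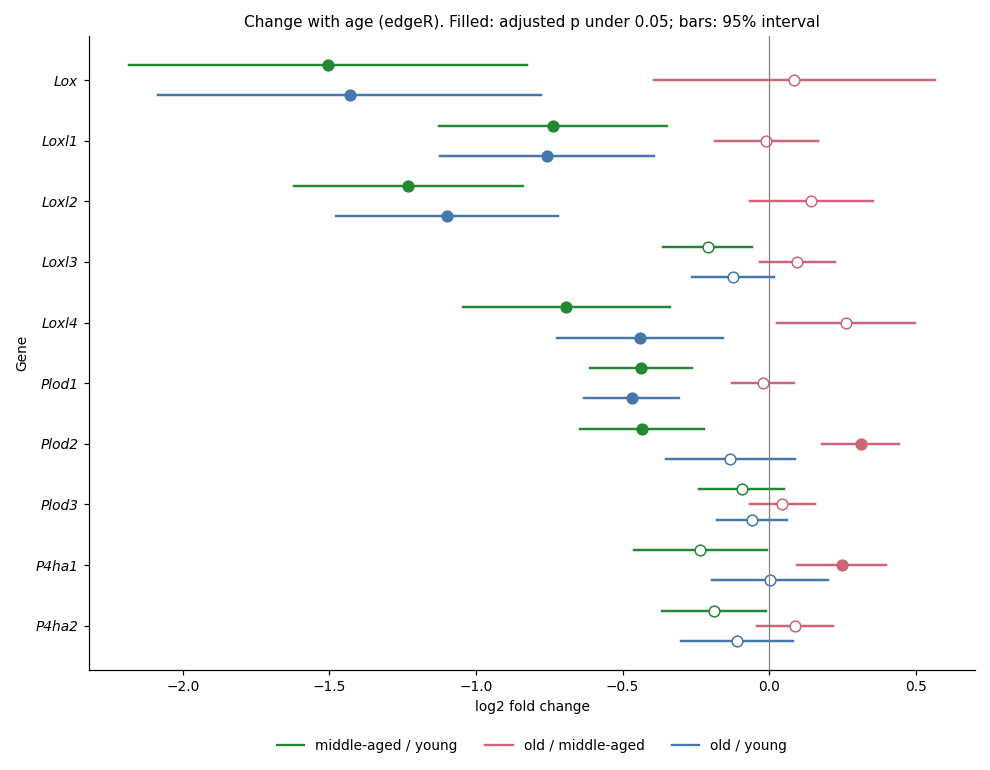
Log2 fold change (x axis) of each gene between the untreated age groups, with 95% intervals as bars and filled points where the adjusted p was under 0.05. Lox and Loxl2 lie farthest to the left in middle-aged and in old against young bladders, and in old against middle-aged bladders the filled points are Plod2 (0.31) and P4ha1 (0.25).

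Groups that did not overlap were counted as a description. Between young and middle-aged bladders they were those of Loxl1, Loxl2, Plod1 and Plod2, 4 of 10, against 6.97% of all genes tested. Between old and middle-aged bladders only Plod2 separated, against 14.6%, and between old and young bladders 3 genes did, Loxl1, Loxl2 and Plod1, against 12.7%. Old against young bladders gave 5 genes lower (Lox, Loxl1, Loxl2, Loxl4 and Plod1) and none higher, where 25.1% of 16873 genes were called in either direction and 12.4% lower.

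Whether the change from 10 to 26 months differed from that from 2 to 10 months was tested with 1 contrast over the 3 untreated groups. The middle-aged bladders end the first interval and begin the second. The difference was positive for all 10 genes and was called for 4, against 10.8% of 17376 genes called in either direction and 7.17% in that direction. These were Loxl2 (1.40 ± 0.30, adjusted p = 0.00967), Plod2 (0.77 ± 0.17, adjusted p = 0.0110), Loxl4 (0.98 ± 0.26, adjusted p = 0.0252) and Plod1 (0.44 ± 0.13, adjusted p = 0.0413). For Lox the estimate was larger, 1.62 ± 0.55, with an adjusted p of 0.0675. The count rested on single bladders. It was 2, with Loxl2 and Plod2 still called, without middle-aged replicate 1, 2, 3 or 5, and 8 without young replicate 5. The Plod1 call was also lost without young replicate 1, 2 or 6, or without untreated old replicate 1, 2, 3, 5 or 6. It was lost in 18 of the 28 alternatives tried for this contrast.

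The young bladders were not alike. Young replicate 1 was the highest of the 6 for all 10 genes, and for 7 genes young replicate 2 was also among the highest pair. Young replicate 1 had 4.84 times the mean middle-aged CPM of Lox and young replicate 4 had 1.31 times. Eln, the gene for elastin, spread further, from 1.65 times in young replicate 5 to 11.6 times in young replicate 1. The same bladders differed in cell cycle markers (Mki67, Top2a, Ccnb1, Cdk1, Birc5 and Aurkb), whose summed level was 81.4, 59.1, 23.3, 17.5, 17.1 and 34.0 CPM in young replicates 1 to 6 and 9.41 to 18.0 CPM in middle-aged bladders.

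Left out together, young replicates 1 and 2 took the fall of Lox in middle age from -1.51 to -1.02 (adjusted p = 0.0304) and that of Loxl2 to -1.03 (adjusted p = 0.00501). Plod1 (-0.35, adjusted p = 0.0214) and Plod2 (-0.28, adjusted p = 0.0142) also stayed called, whereas Loxl1 (-0.50, adjusted p = 0.0637) and Loxl4 (-0.49, adjusted p = 0.0683) did not, which left 4 genes lower. Without young replicates 3 and 4, the most shallowly sequenced of the group, 7 genes were lower. The count over all genes moved the same way. It was 417 of 16798 lower without replicates 1 and 2 and 1887 of 16913 without replicates 3 and 4, against 980 of 16754 with all young bladders.

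**Figure D3:**
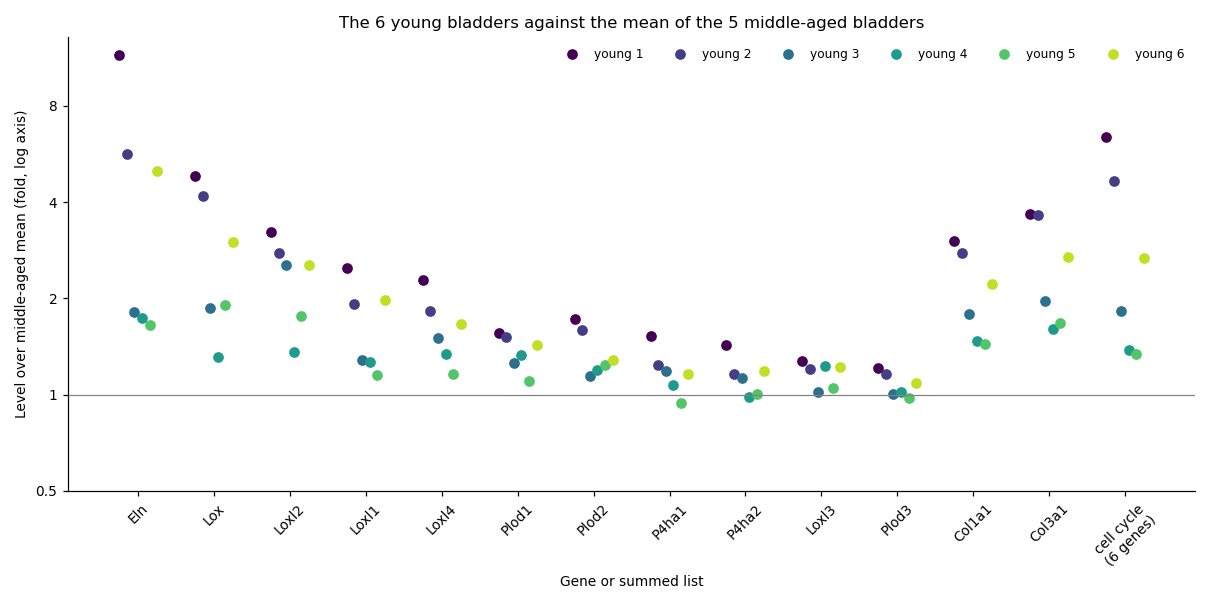
Level of each gene in the 6 young bladders divided by the mean of the 5 middle-aged bladders (log axis; the line marks 1), with the substrates Eln, Col1a1 and Col3a1 and the summed cell cycle markers for comparison. Young replicates 1, 2 and 6 lie highest for Eln, Lox and Loxl1, and the spread narrows towards Loxl3 and Plod3.

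The markers of other cell types were counted with the same test. Of all genes, 10.8% were called from young to middle age and 24.0% from middle to old age. From young to middle-aged bladders 6 of 8 fibroblast markers fell, and their summed level was 11454 to 21098 CPM in young and 7829 to 9505 CPM in middle-aged bladders. In that list Dcn, Lum, Col1a1 and Col3a1 also stand among the collagens and proteoglycans below. Col1a1 (mean 5771 CPM in young and 2720 in middle-aged bladders) and Col3a1 (6012 and 2368) made up most of that sum and of its fall. All 6 cell cycle markers fell, as did 3 of 5 skeletal muscle, 2 of 5 endothelial and 2 of 4 Schwann cell markers, and 5 of 7 B and plasma cell markers rose. None of the 7 smooth muscle, 9 urothelial, 5 adipocyte, 6 T cell or 5 macrophage markers was called. From middle-aged to old bladders all 7 B and plasma cell, all 6 T cell, all 6 cell cycle and 4 of 5 macrophage markers rose, with summed B and plasma cell levels of 58.4 to 429 CPM in middle-aged and 2708 to 17633 CPM in old bladders. In the same interval 5 of 9 urothelial markers fell. Of the others 2 of 8 fibroblast and 2 of 7 smooth muscle markers fell, skeletal muscle (2 higher, 1 lower) and endothelium (1 each way) were mixed, 1 Schwann cell marker fell and no adipocyte marker was called. The part of these shifts in the results for the enzymes was not tested, and in whole bladders fewer cells of a type and less RNA per cell cannot be told apart.

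The substrates of these enzymes fell with them. Beside the counts of this list and of those that follow, 10.8% of all genes tested were called from young to middle age. The share was 24.0% from middle to old age and 25.1% in old against young bladders. Of 10 fibrillar collagen genes tested, 8 fell from young to middle age and none rose, with a median log2 fold change of -0.97. The largest changes were those of Col11a1 (-1.55 ± 0.21), Col3a1 (-1.33 ± 0.22) and Col1a1 (-1.07 ± 0.19), and Col1a2 changed by -0.99 ± 0.17. Col1a1 had 3922 to 8245 CPM in young, 2316 to 3371 in middle-aged and 2281 to 2648 in old bladders. Between middle and old age 1 of the 10 was called, Col5a3, which fell by 0.43. Elastic fiber genes behaved alike in the first interval, with 6 of 10 lower. The largest falls were those of Fbn2 (-3.32 ± 0.63), Eln (-2.18 ± 0.47) and Fbn1 (-1.36 ± 0.25), which encode fibrillins and elastin. Fbn2 passed the filter on low counts only in comparisons that held the young bladders, where it was higher. Counts out of 10 in this list include Fbn2, and the count out of 9 does not. In the second interval Eln differed by -0.15 ± 0.13 (adjusted p = 0.457), and of 9 genes tested 1, the microfibril gene Mfap2, fell (-0.28). Old against young bladders gave 8 of 10 fibrillar collagens and 9 of 10 elastic fiber genes lower and none higher.

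Basement membrane collagens and Pxdn, the peroxidase that crosslinks collagen IV, had 4 of 7 genes lower in middle age, among them Col4a1 (-0.79 ± 0.18), Col4a2 (-0.71 ± 0.15) and Col4a4 (-0.65 ± 0.20). The count was 2 without middle-aged replicate 5. In old against middle-aged bladders only Col4a6 was called (-0.19).

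Genes that fold and modify collagen before secretion fell in 10 of 19 cases from young to middle age. The largest falls were those of Sparc, a collagen-binding protein (-1.33 ± 0.22), P4ha3, the third prolyl 4-hydroxylase catalytic subunit (-1.18 ± 0.35), and Serpinh1, the collagen chaperone HSP47 (-0.82 ± 0.18). The count was 5 without middle-aged replicate 1, 2, 3 or 5, and 5 without young replicates 1 and 2 together. P4hb, the subunit that P4ha1 and P4ha2 need for activity, was not called (-0.15 ± 0.06, adjusted p = 0.102). From middle to old age Pdia4 (0.41) and Colgalt1 (0.08) were called higher, and leaving out single bladders gave counts of 1 to 4.

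Extracellular processing genes fell in 6 of 11 cases in middle age. Adamts2 (-1.25 ± 0.17) and Adamts14 (-1.09 ± 0.20), which cut the amino-terminal propeptide of procollagen, and Pcolce (-0.70 ± 0.13), which enhances removal of the carboxy-terminal one, fell most. Bmp1, whose protease activates procollagen and pro-lysyl oxidase, fell by 0.60 ± 0.09 on the log2 scale. In old against middle-aged bladders Adamts3 rose (0.62 ± 0.11), and Postn (-0.21) and Bmp1 (-0.15) fell.

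Crosslinkers of another chemistry were counted next, where 24.0% of all genes were called from middle to old age and 10.8% from young to middle age. Of the 5 transglutaminase genes, which join glutamine to lysine, 3 rose from middle to old age, namely Tgm1 (1.29 ± 0.20), F13a1 (0.52 ± 0.10) and Tgm2 (0.19 ± 0.05). From young to middle age only Tgm5 was called (0.68 ± 0.18), the other 4 estimates were negative, and leaving out single bladders gave counts of 0 to 3. Of 7 small proteoglycans that coat collagen fibrils, Ogn (0.70 ± 0.12) and Aspn (0.40 ± 0.10) rose and Lum (-0.41 ± 0.09) fell from middle to old age. Lum was also the 1 of 7 that fell from young to middle age (-0.47 ± 0.14), where leaving out single bladders gave counts of 0 to 3.

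P4ha1 and Plod2 are known targets of hypoxia-inducible factors, so other hypoxia-inducible genes were counted. Of 12, 3 rose and 1 fell from middle to old age, namely Ankrd37 (0.50 ± 0.15), Adm (0.34 ± 0.12), Ldha (0.14 ± 0.05) and, lower, Car9 (-0.40 ± 0.12), against 24.0% of all genes called in that comparison. None of the 4 was called without middle-aged replicate 5, and counts of 0 to 4 came from leaving out single bladders. From young to middle age only Slc2a1 was called (0.23 ± 0.06), against 10.8% of all genes, with counts of 0 to 2. The promoter of P4ha1 is shown because this gene rose between the older groups and its promoter is in the RefSeq table (GRCm38.p6), which matched 5 of the 10 genes. The 250 bases before the start, chr10:59323046-59323295 on the plus strand, carry ACGTG or GCGTG, the core letters of the hypoxia response element, in capitals on either strand.
P4ha1: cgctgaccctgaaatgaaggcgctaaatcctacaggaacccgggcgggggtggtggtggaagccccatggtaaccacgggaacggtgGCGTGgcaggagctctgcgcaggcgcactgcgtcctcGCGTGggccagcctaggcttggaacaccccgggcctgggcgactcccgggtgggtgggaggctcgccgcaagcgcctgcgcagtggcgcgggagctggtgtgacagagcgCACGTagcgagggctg
With the 50 bases after the start included, P4ha1 had GCGTG at 2 places and ACGTG once, on the other strand, and the same 3 matches are those shown. Of 32851 mouse promoters of that length, 19.6% held ACGTG and 32.4% held GCGTG on either strand. P4ha2 and Plod3 held both, and Loxl4 and Plod1 held GCGTG alone. ACGTG and GCGTG can share an end base, and ACGTG can overlap its own reverse complement CACGT, but the 3 matches shown lie apart. A match is only a description of these letters.

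Because enzymes and substrates fell together, each enzyme was also expressed as a percentage of the summed TPM of Col1a1, Col1a2 and Col3a1 in the same bladder, a ratio that no scaling between libraries can move. That collagen sum was 6787 ± 2192 TPM (SD) in young, 3116 ± 362 in middle-aged and 2678 ± 253 TPM in untreated old bladders. Ratios were compared on the log2 scale with two-sided exact permutation tests over bladders, adjusted over all genes tested.

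Lox and Loxl2 were the enzymes whose ratio was not called higher in middle age. Lox stood at 0.975% of the collagen sum in young bladders (0.698 to 1.24%) and at 0.780% in middle-aged bladders (0.648 to 1.10%), a log2 difference of -0.32 (exact permutation test, adjusted p = 0.135). Loxl2 stood at 1.59% and 1.48%, a difference of -0.11 (exact permutation test, adjusted p = 0.383). The other 8 enzymes were called higher, from Loxl1 (2.46 to 3.22%, 1.31-fold) to Plod3 (0.796 to 1.57%, 1.97-fold). This count of 8 of 10 is not particular to the enzymes, since 92.5% of 16576 genes rose relative to collagen, with a median log2 difference of 1.09 over all genes. The 8 enzymes rose by 0.39 (Loxl1) to 0.98 (Plod3), below that median.

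In old against young bladders the same comparison gave 8 of 10 higher, against 96.4% of genes, and Lox (-0.08, adjusted p = 0.764) and Loxl2 (0.20, adjusted p = 0.187, exact permutation tests) were again not called. From middle to old age Loxl3, Loxl4, Plod2 and P4ha1 were called higher relative to collagen, against 10.2% of genes. Plod2 went from 0.964 to 1.34% and P4ha1 from 2.11 to 2.83%. All 4 had the exact permutation p of 0.00433, the smallest that 6 against 5 bladders allow, and an adjusted p of 0.0417. These calls sat at that limit, and none of the 4 was kept when any single bladder other than untreated old replicate 4 was left out.

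**Figure D4:**
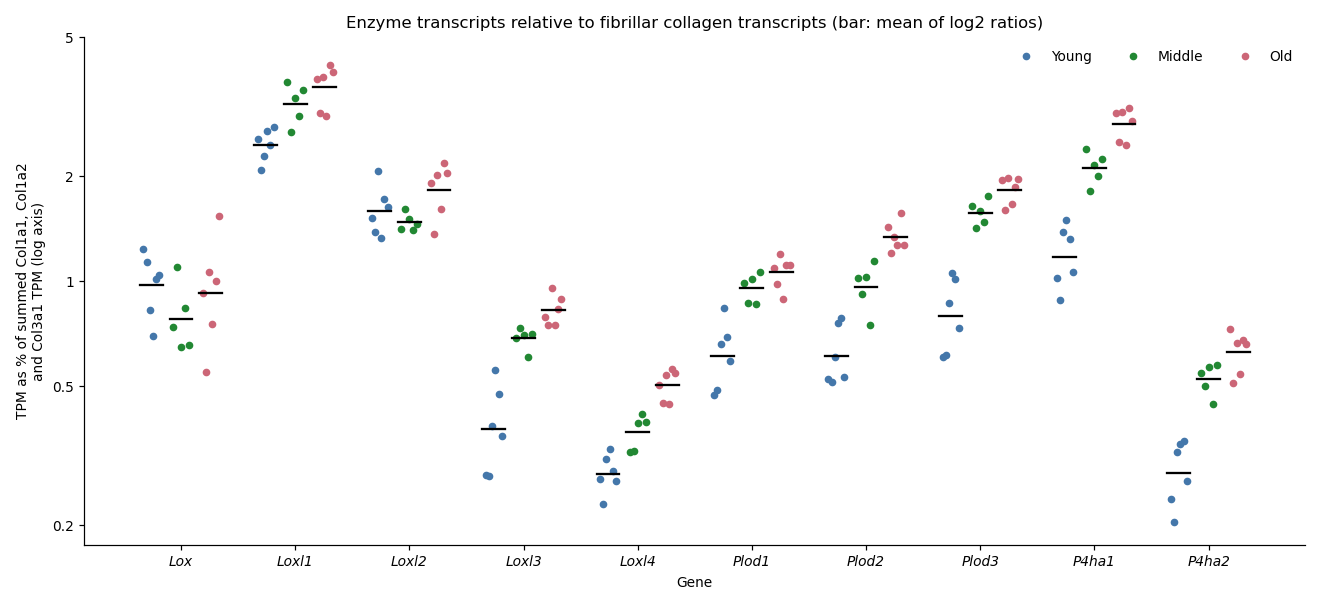
TPM of each enzyme as a percentage of the summed Col1a1, Col1a2 and Col3a1 TPM (log axis) in young, middle-aged and untreated old bladders, with points for single bladders and bars for the mean of the log2 ratios. The points of Lox and of Loxl2 overlap between all 3 ages. The other 8 enzymes were called higher in old than in young bladders, as were 96.4% of all genes tested.

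After D + Q, against untreated old bladders, none of the 10 enzymes was called, and edgeR called 0 of 17037 genes, of which 2200 (12.9%) had an unadjusted p under 0.05. DESeq2 called 175 genes, 146 of them lower, and none was an enzyme. None of the 10 reached an unadjusted p under 0.05 either. The median log2 fold change of the enzymes was -0.05. The largest difference in size was that of Loxl2, with 55.9 to 79.6 CPM (median 68.2) after D + Q against 60.6 to 91.9 CPM untreated (-0.18 ± 0.10, 95% interval -0.39 to 0.02, adjusted p = 0.434). The intervals were narrow for Plod1 (-0.11 to 0.09) and Plod3 (-0.11 to 0.07) and wide for Lox (-0.52 to 0.21), which had 26.0 to 36.3 CPM after D + Q. Groups overlapped for all 10 enzymes, and 0.599% of all genes had groups that did not overlap. The ratio to collagen was not called for any of them, with log2 differences of -0.12 to 0.08 and a smallest exact permutation p of 0.310, and 0.00% of 17014 genes were called higher.

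Gavage itself was compared in the same way. Water against untreated old bladders gave none of the 10 enzymes called, where 0.487% of 17250 genes were called higher and 0.516% lower. Plod1 (-0.11 ± 0.04, unadjusted p = 0.0191, adjusted p = 0.215) and P4ha1 (-0.13 ± 0.06, unadjusted p = 0.0369, adjusted p = 0.281) had the smallest p of the 10 in that edgeR fit, and 16.0% of all genes had an unadjusted p under 0.05. The water bladders had 49.4, 51.7, 54.5, 51.9 and 50.9 CPM of Plod1, and 28.2, 26.4, 22.8, 33.7 and 28.1 CPM of Lox (-0.36 ± 0.19, adjusted p = 0.369).

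For vehicle against untreated old bladders edgeR called none of the enzymes and 0 of 17440 genes, of which 8.39% had an unadjusted p under 0.05 and none was an enzyme. DESeq2 called 121 of the 7723 genes to which it gave an adjusted p there, again with no enzyme. Loxl4 had no adjusted p in that DESeq2 comparison. The 4 vehicle bladders had 35.7, 29.2, 31.9 and 22.7 CPM of Lox and 71.7, 59.6, 44.6 and 49.2 CPM of Plod2. For D + Q against vehicle edgeR likewise called 0 of 17267 genes, with 4.18% at an unadjusted p under 0.05. DESeq2 called 9 genes, none of them an enzyme. The only enzyme with an unadjusted edgeR p under 0.05 was Loxl2 (-0.24 ± 0.10, 95% interval -0.46 to -0.02, unadjusted p = 0.0384, adjusted p = 0.994). The vehicle bladders had 82.9, 90.7, 82.1 and 65.8 CPM of Loxl2. By edgeR no gene of the 8 lists of substrates, modifiers, crosslinkers and hypoxia-inducible genes was called in these 4 comparisons. DESeq2 called Car9 after D + Q (0.39, adjusted p = 0.0218) and, after water, Tgm5 (-0.87, adjusted p = 0.0150), Ogn (-0.41, adjusted p = 0.0182) and Col4a5 (-0.16, adjusted p = 0.0379).

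Some lists had estimates of 1 sign in D + Q-treated bladders compared with untreated ones of the same age, with no edgeR call in them. They are named here because of these signs, after the values were seen. Of all genes, 12.9% had an unadjusted p under 0.05 in that edgeR comparison. The 12 hypoxia-inducible genes were all positive (median 0.14 on the log2 scale, 4 at an unadjusted p under 0.05 and a smallest adjusted p of 0.246), and the 7 basement membrane genes were all negative (median -0.12, 3 at an unadjusted p under 0.05 and a smallest adjusted p of 0.356). Among markers of other cell types, all 6 T cell genes (median -0.62, 6 at an unadjusted p under 0.05), all 6 cell cycle genes (-0.63, with 5), all 7 B and plasma cell genes (-0.63, with 2), all 5 macrophage genes (-0.17, with 0) and all 5 adipocyte genes (-0.41, with 0) were negative. The smallest adjusted p among these markers was 0.264. The T cell and cell cycle genes were also all negative after water (medians -0.61 and -0.59) and vehicle (-0.61 and -0.38) against untreated bladders. Of B and plasma cell genes 3 of 7 were negative in each. After water all 7 basement membrane and all 5 macrophage genes were negative, against 5 and 2 after vehicle. Of the 12 hypoxia-inducible genes 7 were negative after water (median -0.02) and 3 after vehicle (median 0.04). In D + Q against vehicle 1 of the 12 was negative (median 0.09). In D + Q against vehicle, T cell and cell cycle medians were -0.13 and -0.25, with 0 at an unadjusted p under 0.05. The part of these shifts in the values of the enzymes was not tested. After water, 1 of 9 urothelial markers was called higher, and edgeR called no other marker in the 4 comparisons.

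**Figure D5:**
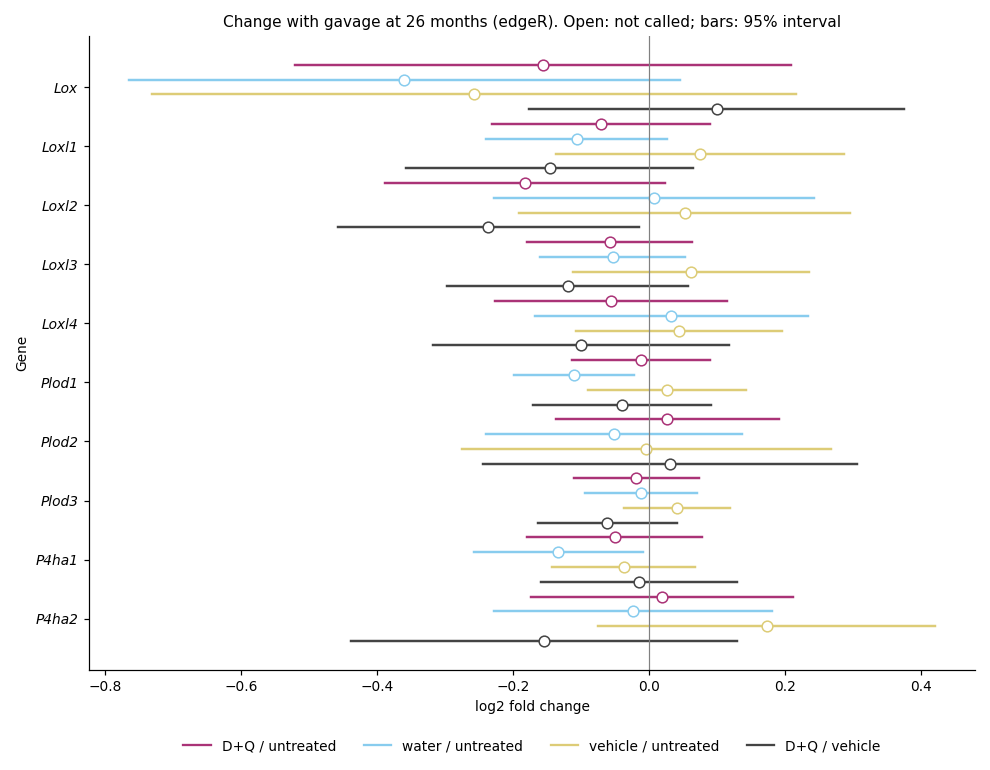
Log2 fold change (x axis) of each enzyme after D + Q, water or vehicle against untreated old bladders, and after D + Q against vehicle, with 95% intervals as bars. All points are open, since none was called, and estimates run from -0.36 (Lox, water) to 0.17 (P4ha2, vehicle).

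The genes most like each enzyme over the 32 bladders were found by Pearson's r of log2(CPM + 0.1) among 15055 genes with a mean of at least 1 CPM. These values describe bladders that differ in age and depth. Loxl1 was nearest to Col4a1 (r = 0.962), a basement membrane collagen, and to Gpr153 (0.958), and Loxl2 to Adamts2 (0.943) and Col5a1 (0.942). Plod1 was nearest to Col6a1 (0.932) and Gpr153 (0.929), and Lox to Tmem45a (0.923) and the long noncoding RNA Rian (0.921). Loxl4 was nearest to Itgb1 (0.887) and Ehd2 (0.885), and Plod2 to Col8a1 (0.858) and Id4 (0.765). The enzymes that varied less had weaker neighbours, with Plod3 nearest to Actg2 (0.820) and Gnb1 (0.812), and Loxl3 to Emp3 (0.807) and Tvp23a (0.739). P4ha1 was nearest to Stk40 (0.803) and Trpv2 (0.794), and P4ha2 to Cntn6 (0.711) and Sod3 (0.707).

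Lox, Loxl2, Loxl3 and Plod3 share exonic bases with a gene on the opposite strand (AC161119.1, Gm27177, Htra2 and Znhit1, in that order). The kit was stranded, but the strand setting of the counting is not given in the sources used here, so reads from those stretches cannot be assigned with certainty to either partner.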

How the data were processed

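Total RNA libraries of 32 bladders were prepared by the authors with a stranded kit, and the submitters' processing notes name STAR 2.7.3, Subread and mm10. The authors deposited raw counts of 32285 genes, with each gene's exon length in bases (the other unit used), and a normalized table on a log2 scale. Its linear values, from the count plus 1 per base of exon, sum to 100000 in each bladder, and multiplied by 10 they are TPM.

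Counts were tested with edgeR 4.0.16 in R 4.3.3 (TMM, filterByExpr, quasi-likelihood test, Benjamini-Hochberg adjusted p under 0.05 over all genes), with only the groups compared in each fit. Intervals are 95% from the same fit. TPM and TMM-scaled CPM were computed from the counts. Ratios to collagen were tested by exact permutation with scipy 1.17.1. Their p-values were adjusted over all genes without a 0 count, in place of over the 10 enzymes as first planned. The summed counts of 15088372 to 52650259 put 3 counts at 0.0570 to 0.199 CPM, and such floors cover counting error only. No 2 bladders of a group held identical counts. In simulated data for old against middle-aged bladders (17042 genes), 95% of genes changed by 1 on the log2 scale and 78% of those changed by 0.5 were recovered. For D + Q against untreated old bladders (16925 genes) this was 96% and 80%. Each simulation changed 100 genes by each amount, drawn only from genes with higher counts. Recovery at an adjusted p depends on how many genes change. These shares therefore do not give the power of the D + Q comparison, where edgeR called 0 genes.

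The genes, the 8 other lists of collagen-related genes and the 11 marker lists were chosen with earlier results of these data known. All 10 enzymes are named, with up to 3 called genes of largest change from each list, the main substrates Col1a1, Col1a2, Col3a1 and Eln, and the 2 genes most like each enzyme. Bmp1, P4hb, Mfap2, Pxdn and the genes called lower or higher in small numbers were named after their values were seen. Alternatives were DESeq2 1.42.0, RLE normalization, no filter, a minimum of 10 counts per bladder, a single fit of all 6 groups, limma 3.58.1 on log2(TPM + 1) and log2(TPM + 0.1), a block by replicate number, and leaving out each bladder. For ratios they were other denominators and a difference of medians. Leaving out young replicates 1 and 2, or 3 and 4, and a block by the numbers in the deposited columns were chosen after seeing the data.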

Additional observations from a re-analysis of the deposited data

Results flagged for a closer look

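One value stood apart from its group. For Plod3, untreated old replicate 2 had 59.4 CPM, and the nearest of the other 5 untreated old bladders had 64.7 CPM. That gap was 0.779 of the group's whole range, above the critical value of 0.625 for 6 samples in Dixon's test. Of 60 groups tested (10 enzymes in 6 groups) this was the 1 flag, and chance gives about 1 in 20.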

How the results depend on the processing

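No called value reversed under any alternative. The count of enzymes lower in middle-aged than in young bladders was 6, with 4 to 7 when 1 bladder was left out and 4 to 8 under the other alternatives, and Lox, Loxl2, Plod1 and Plod2 were called in all 22. For old against young bladders it was 5, with 4 to 5 throughout. For old against middle-aged bladders it was 2, with 0 when all 6 groups entered one fit (Plod2 adjusted p = 0.0561, P4ha1 0.0502), 1 with limma on log2(TPM + 1), and 1 to 3 when 1 bladder was left out, the 1 coming without middle-aged replicate 3 or 5. The difference between the later and the earlier change was called for 4 enzymes, for 2 with either replicate number as a block, for 8 without young replicates 3 and 4, and for 2 to 8 when 1 bladder was left out. The count of ratios to collagen that rose from middle to old age was 4, with 0 for the difference of medians and 0 to 4 when 1 bladder was left out. The other ratio counts did not move. No enzyme was called in the D + Q, water or vehicle comparisons under any alternative, although Loxl4 had no adjusted p from DESeq2 for vehicle against untreated old bladders. The cause of these shifts was not tested, apart from the fewer bladders in some. The numbers in the titles and those in the deposited columns differ for some middle-aged, water and vehicle bladders, and both were checked, the column numbers after seeing the data. By neither did same-numbered bladders deviate together throughout (correlations of -0.320 to 0.250, and not every bladder correlated best with its own number), and the labels give the numbers no meaning, so no pairing was used. The block by title number gave 4 enzymes in middle-aged against young bladders and 4 in old against young, and that by column number gave 5 in middle-aged against young bladders and 3 in old against middle-aged bladders, where Loxl4 was added.

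Counts over all genes moved more. In middle-aged against young bladders 1811 genes were called, with 716 under the block by title number, 893 under that by column number, 2858 with all 6 groups in one fit, 747 without young replicates 1 and 2, 3717 without young replicates 3 and 4, and 728 to 2794 when 1 bladder was left out. In old against middle-aged bladders all 6 groups in one fit gave 2519 in place of 4110, and the later against the earlier change gave 3886 without young replicates 3 and 4 in place of 1884, and 683 to 2907 when 1 bladder was left out. Where edgeR called 0 genes, DESeq2 called 175 for D + Q against untreated old bladders, 121 for vehicle and 9 for D + Q against vehicle. For water the count was 173, with 670 by DESeq2, 99 without the filter, 0 with all 6 groups in one fit, with limma or with either block, and 37 to 199 when 1 bladder was left out. Of the lists of other collagen-related genes, the gavage comparisons gave 4 calls by DESeq2 and, for water without untreated old replicate 4, that of Fmod (0.42, adjusted p = 0.0447).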
